A study of Mus musculus with 35 samples.

Results

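The genes described here are 34 mouse genes of sterol and fatty acid synthesis, chosen by symbol from a fixed list. Of these, 33 were measured among the 19908 genes of the arrays, and Acat2 was not analysed here. The sterol branch held 18 measured genes, 7 that lead to farnesyl and geranylgeranyl diphosphate (the mevalonate steps) and 11 from the synthesis of squalene on to cholesterol (the steps from squalene to cholesterol). The fatty acid branch held 8 genes, and 5 regulators and 2 genes of sterol uptake and transport completed the list. Signal was measured in the colon of 35 C57BL/6N mice, on 1 Affymetrix Mouse Gene 1.0 ST array each, and the mice formed 7 groups of 5. Among conventional mice, both Reg3a-transgenic and wild-type animals were studied after drinking 3% dextran sulfate sodium (DSS) for 5 days and without it. DSS damages the epithelium of the colon and brings on colitis. Axenic (germ-free) mice, all given DSS, formed 3 groups: recipients of fecal flora from transgenic donors, recipients of flora from wild-type donors, both transplanted 3 weeks before DSS, and axenic controls. The label of these controls places DSS ahead of a transfer of microbes, and the sources used here do not give whether and when they received flora. Colons were collected on day 12. The sources used here do not name the promoter of the transgene, the species of its Reg3a sequence or the number of founder lines. One treatment label puts the conventional mice after a transfer of microbes too, but their titles and the design text do not, and these were followed.

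Cholesterol is built from acetyl-CoA through mevalonate, farnesyl diphosphate, squalene and lanosterol, and fatty acids are built from the same acetyl-CoA by carboxylation, chain synthesis, elongation and desaturation. Both routes are controlled by the SREBP transcription factors, which the genes Srebf1 and Srebf2 encode. Scap escorts SREBPs out of the endoplasmic reticulum when sterols are scarce, and the Insig proteins hold them back when sterols are plentiful. SREBPs bind sterol regulatory elements, often beside a box bound by the factor NF-Y, and the gut epithelium is a site of active sterol synthesis.

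Promoter windows from RefSeq (build GRCm38.p6, from 250 bases before to 50 bases after the annotated start) are shown for 5 genes, because these genes from both branches carry results below. They are Hmgcs1 at chr13:119690101-119690400 on the plus strand, Idi1 at chr13:8885356-8885655 on the plus strand, Nsdhl at chrX:72918271-72918570 on the plus strand, Cyp51 at chr5:4104648-4104947 on the minus strand and Fasn at chr11:120824498-120824797 on the minus strand. Each is printed 5′ to 3′ along its gene, and capitals mark matches to CCAAT (the core of the NF-Y box) on either strand, which reads ATTGG on the other strand, or to TCACNCCAC, a form of the sterol regulatory element.
Hmgcs1: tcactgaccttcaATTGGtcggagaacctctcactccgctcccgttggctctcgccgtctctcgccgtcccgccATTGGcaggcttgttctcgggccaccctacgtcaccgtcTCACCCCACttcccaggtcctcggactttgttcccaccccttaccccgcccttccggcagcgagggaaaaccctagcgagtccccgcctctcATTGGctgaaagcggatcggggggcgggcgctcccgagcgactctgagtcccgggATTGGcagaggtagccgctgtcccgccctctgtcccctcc
Idi1: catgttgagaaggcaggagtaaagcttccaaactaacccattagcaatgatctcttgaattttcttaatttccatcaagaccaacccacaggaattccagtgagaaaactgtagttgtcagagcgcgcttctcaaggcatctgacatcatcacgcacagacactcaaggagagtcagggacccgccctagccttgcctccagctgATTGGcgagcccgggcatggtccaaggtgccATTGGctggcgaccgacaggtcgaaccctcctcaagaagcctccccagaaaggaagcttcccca
Nsdhl: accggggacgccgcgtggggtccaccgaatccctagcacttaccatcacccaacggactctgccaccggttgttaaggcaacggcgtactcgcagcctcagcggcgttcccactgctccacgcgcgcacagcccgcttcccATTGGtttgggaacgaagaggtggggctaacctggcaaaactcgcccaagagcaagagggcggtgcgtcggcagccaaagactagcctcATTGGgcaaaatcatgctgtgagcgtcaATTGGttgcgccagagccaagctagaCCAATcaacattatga
Cyp51: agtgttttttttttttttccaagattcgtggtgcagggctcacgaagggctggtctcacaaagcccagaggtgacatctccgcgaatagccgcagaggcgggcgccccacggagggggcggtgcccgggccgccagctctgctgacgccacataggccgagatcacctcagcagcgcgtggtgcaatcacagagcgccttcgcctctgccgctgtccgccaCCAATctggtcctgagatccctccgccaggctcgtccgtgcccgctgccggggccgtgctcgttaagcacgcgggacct
Fasn: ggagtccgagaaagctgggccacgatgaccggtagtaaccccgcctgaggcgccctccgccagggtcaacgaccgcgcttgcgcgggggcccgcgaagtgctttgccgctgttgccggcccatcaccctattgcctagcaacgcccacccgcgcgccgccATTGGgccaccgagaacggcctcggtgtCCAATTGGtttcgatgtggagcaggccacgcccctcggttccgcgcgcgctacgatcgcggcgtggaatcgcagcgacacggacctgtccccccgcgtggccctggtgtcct
The Hmgcs1 window held 4 matches to CCAAT and 1 to TCACNCCAC, which starts 137 bases upstream of the gene start. Idi1 had 2 CCAAT matches, 45 and 14 bases upstream, Nsdhl had 4, Cyp51 had 1 and Fasn had 3, of which the matches starting 62 and 59 bases upstream overlap. A window was in the table for 27 of the 34 genes, and Fdps, Fdft1, Sqle, Scd1, Scd2, Fads1 and Stard4 had none. CCAAT matched in 15 of the 16 sterol branch genes with a window (93.8%; Acat2 was the exception), in 2 of 5 fatty acid genes and in 4 of 5 regulators, against 37.4% of all 32851 windows and 41.7% of the 15588 measured genes with a window. TCACNCCAC matched in 1 of the 16 sterol genes, 0 of 5 fatty acid genes and 0 of 5 regulators, against 1.2% of all windows and 1.4% of the measured genes with a window. These are matches of letters in short windows, and binding was not measured.

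All values are log2 signal as deposited. Arrays had medians of 6.65 to 6.95. The array spread, meaning the standard deviation of all probe sets on 1 array, lay between 1.64 and 2.03 and was 1.64 to 1.78 in axenic controls, 1.90 to 2.03 with wild-type flora and 1.66 to 1.94 with transgenic flora, where mouse TG922 had the lowest value. Mice are named here by the ends of their titles, and in axenic mice the letters stand for the flora donor's genotype or for controls. Mouse TG922 stood apart from its group in many of the genes below, and the main values of the transgenic-flora comparisons are given with and without it. Markers of gut epithelium averaged 10.56 to 11.82 per array and markers of smooth muscle 9.32 to 10.85, so the colon samples carried both. In such tissue, fewer cells of a type and less RNA per cell cannot be told apart. The mouse Reg3a probe set read 4.89 to 5.24 in conventional transgenic mice and 5.07 to 5.58 in conventional wild-type mice. The sources used here do not say whether it covers the transgene, so it checks no label. All 33 genes had a mean above the 40th percentile of mean signal (6.41).

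**Figure D1:**
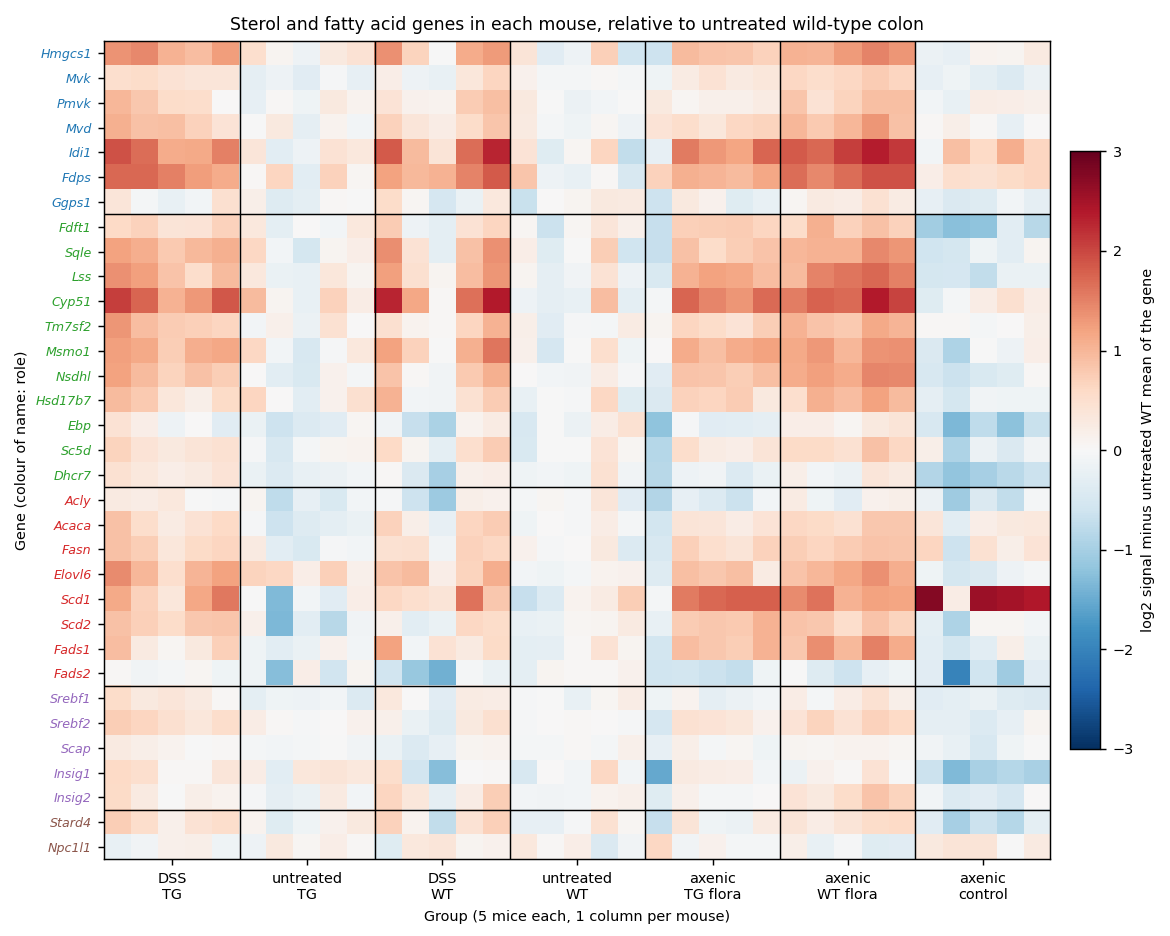
Log2 signal of the 33 measured genes (rows, names coloured by role) in each of the 35 mice (columns, 5 per group), as the difference from the gene's mean in untreated wild-type mice. Of the 18 sterol genes, 16 to 18 lie above that mean, on the red side, in the DSS-treated transgenic mice and 17 or 18 in the recipients of wild-type flora. In DSS-treated wild-type mice this holds for 17 or 18 in 3 mice, 13 in mouse WT56 and 8 in mouse WT55. Mouse TG922, the first column of the transgenic-flora group, has 5 above that mean, against 15 or 16 in the other recipients of this flora.

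In transgenic mice, DSS raised 20 of the 33 genes and lowered none (limma, Benjamini-Hochberg adjusted p under 0.05 over all genes), against 3.46% of all genes called higher and 1.08% called lower. They included 14 of 18 sterol genes, 4 of 8 fatty acid genes and the regulators Srebf1 and Srebf2. The median log2 difference was 0.79 over the sterol branch and 0.67 over the fatty acid branch, against -0.01 over all genes. In 21 of the 33 genes every DSS mouse lay above every untreated mouse, which held for 5.40% of all genes. Those that did not pass were Pmvk, Ggps1, Hsd17b7 and Ebp in the sterol branch, Acly, Elovl6, Fads1 and Fads2 in the fatty acid branch, and Scap, Insig1, Insig2, Stard4 and Npc1l1.

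Among the mevalonate steps, Mvk, the kinase that phosphorylates mevalonate, measured 8.85, 8.89, 8.79, 8.72 and 8.70 in the 5 DSS-treated transgenic mice, against 8.08, 8.20, 8.02, 8.31 and 8.10 in the 5 untreated transgenic mice. It rose by 0.65 on the log2 scale (SE 0.08, limma adjusted p = 0.0053), and its groups did not overlap. Idi1, the isomerase that balances the isoprene units from which sterols are assembled, measured 9.81, 9.59, 9.02, 9.05 and 9.42 in DSS mice, against 8.28, 7.60, 7.75, 8.35 and 8.23 in untreated mice. Its rise of 1.34 on the log2 scale (SE 0.19, limma adjusted p = 0.00761), or 2.53-fold, was the largest among the 18 sterol genes of transgenic mice, and again every DSS mouse was above every untreated one. The other mevalonate genes that rose were Hmgcs1, the synthase that makes HMG-CoA, at 0.97, Fdps, which makes farnesyl diphosphate, at 1.24 and Mvd, which makes isopentenyl diphosphate, at 0.79 on the log2 scale.

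From the synthesis of squalene on to cholesterol, 9 of 11 genes rose, with log2 differences of 0.50 for squalene synthase (Fdft1) to 1.26 for the lanosterol demethylase Cyp51. Nsdhl, a dehydrogenase that works with Msmo1 and Hsd17b7 to strip methyl groups from the sterol ring, measured 10.12, 9.86, 9.58, 9.78 and 9.65 in DSS mice, against 8.91, 8.59, 8.44, 9.03 and 8.83 in untreated mice. This rise of 1.04 on the log2 scale (SE 0.13, limma adjusted p = 0.00591) left a clear gap between the highest untreated and the lowest DSS mouse. Msmo1 rose by 1.01, Sqle (squalene epoxidase) by 0.96, Lss (lanosterol synthase) by 0.92, Tm7sf2 (a sterol reductase) by 0.80, Dhcr7 (a reductase of the last steps) by 0.55 and Sc5d (a sterol desaturase) by 0.52. The 2 that did not pass differed by 0.38 for Hsd17b7 and 0.33 for the sterol isomerase Ebp.

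In the fatty acid branch, Acaca, the acetyl-CoA carboxylase that commits carbon to fatty acids, measured 9.07, 8.72, 8.44, 8.63 and 8.78 in DSS mice, against 8.16, 7.58, 7.81, 7.89 and 7.98 in untreated mice, a rise of 0.85 on the log2 scale (SE 0.13, limma adjusted p = 0.0109). Fasn, the fatty acid synthase, measured 10.21, 10.08, 9.70, 9.91 and 10.001, against 9.61, 9.03, 8.89, 9.31 and 9.26 in untreated mice, a rise of 0.76 on the log2 scale (SE 0.14, limma adjusted p = 0.0172). Neither gene's groups overlapped. The desaturases Scd1 and Scd2, which make monounsaturated fatty acids, rose by 1.29 (SE 0.29, limma adjusted p = 0.0342) and 1.24 (SE 0.24, limma adjusted p = 0.019), and the elongase Elovl6 differed by 0.56 (adjusted p = 0.0769, not called). Among the regulators, Srebf2, whose product drives mainly the sterol genes, measured 10.34, 10.26, 10.09, 9.94 and 10.14 in DSS mice, against 9.84, 9.63, 9.57, 9.62 and 9.73 in untreated mice. It rose by 0.48 on the log2 scale (SE 0.09, limma adjusted p = 0.0197) with no overlap, and Srebf1, whose product drives mainly the fatty acid genes, rose by 0.52 (adjusted p = 0.0219).

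The count moved with 2 of the mice. Without DSS mouse TG48 it was 8 of 33, of which 7 were sterol genes, and without untreated mouse TG26 it was 13. The share of all genes called fell too, from 4.55% to 0.894% and 1.16%. Of the 10 runs that each left out 1 mouse, 8 stayed close to the reported 20. Genes of dividing cells rose alongside (9 of 10, list means 8.02 to 8.77 in DSS and 6.81 to 7.57 in untreated mice), as did 3 of 9 leukocyte genes (7.66 to 9.32 in DSS and 6.85 to 7.39 in untreated mice), and their part in the result was not tested. Epithelial markers rose in 2 of 12 (11.60 to 11.81 in DSS and 11.25 to 11.56 in untreated mice), none of 10 adipocyte markers was called (6.60 to 7.04 in DSS and 6.74 to 7.11 in untreated mice), and array spread was 1.83 to 2.02 in DSS and 1.73 to 1.89 in untreated mice. With the array spread as a covariate 11 members were called, against 1.76% of all genes. The medians were then 0.68 over the sterol and 0.49 over the fatty acid genes. With the adipocyte level 7 were called, against 0.974% of all genes, at medians of 0.76 and 0.68. Without mouse TG48 the medians were 0.78 and 0.68.

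In wild-type mice, DSS raised 4 of the 33 genes and lowered none, against 3.00% of all genes called higher and 2.13% called lower. They were the mevalonate genes Fdps, Idi1 and Mvd and the fatty acid elongase Elovl6, and none of the 11 genes from squalene to cholesterol passed. The median log2 difference was 0.50 over the sterol branch and 0.42 over the fatty acid branch, against -0.02 over all genes, and 16 of 18 sterol genes had a positive difference. Of the 33 genes, Fdps and Elovl6 had groups that did not overlap, higher in DSS mice, which held for 3.20% of all genes.

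Fdps, which condenses isoprene units to farnesyl diphosphate, measured 9.88, 9.65, 9.72, 10.18 and 10.51 in DSS-treated wild-type mice, against 9.51, 8.53, 8.46, 8.70 and 8.19 in untreated wild-type mice, a rise of 1.31 on the log2 scale (SE 0.24, limma adjusted p = 0.0124). Mvd measured 8.38, 8.07, 7.91, 8.26 and 8.53 in DSS mice, against 7.96, 7.64, 7.58, 7.76 and 7.55 in untreated mice, a rise of 0.53 on the log2 scale (SE 0.13, limma adjusted p = 0.0444), and 1 DSS mouse lay below the highest untreated mouse. Idi1 measured 9.75, 8.86, 8.30, 9.59 and 10.21, against 8.32, 7.56, 7.96, 8.55 and 7.18 in untreated mice, a rise of 1.43 on the log2 scale (SE 0.36, limma adjusted p = 0.0462). DSS mouse WT55, the lowest at 8.30, lay within the untreated range for Idi1.

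Elovl6, which lengthens palmitate, measured 10.10, 10.19, 9.44, 9.92 and 10.34 in DSS mice, against 9.17, 9.13, 9.19, 9.36 and 9.39 in untreated mice, a rise of 0.75 on the log2 scale (SE 0.16, limma adjusted p = 0.0209). Fads2, a desaturase of polyunsaturated fatty acids, measured 11.09, 10.53, 10.23, 11.61 and 11.48, against 11.38, 11.76, 11.71, 11.71 and 11.81 in untreated mice. Its difference of -0.68 on the log2 scale (SE 0.25, limma adjusted p = 0.163) did not pass, and 2 DSS mice lay within the untreated range. Insig2, one of the proteins that retain SREBPs, measured 9.18, 8.90, 8.28, 8.78 and 9.29 in DSS mice, against 8.46, 8.44, 8.47, 8.66 and 8.70 in untreated mice, a difference of 0.34 on the log2 scale (SE 0.17, limma adjusted p = 0.391) that did not pass. The sterol genes with the largest differences short of the threshold were Cyp51 at 1.50 (SE 0.42, adjusted p = 0.0683), Msmo1 at 0.91 (SE 0.28, adjusted p = 0.0965) and Hmgcs1 at 0.89 (SE 0.30, adjusted p = 0.142), all in limma.

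DSS-treated wild-type mice differed widely from each other. The mean difference of the 18 sterol genes from untreated wild-type mice, the sterol index, was 1.08 in mouse WT52, 0.89 in mouse WT65, 0.74 in mouse WT53, 0.26 in mouse WT56 and -0.10 in mouse WT55. Array spread ran in the same order, at 1.99, 1.98, 1.88, 1.81 and 1.71. In the DSS-treated transgenic mice the sterol index ran from 0.62 to 1.08, and in untreated mice it ran from -0.26 to 0.20 in transgenic and from -0.20 to 0.36 in wild-type. Mice WT55 and WT56 had 8 and 13 of the 18 sterol genes above the untreated wild-type mean, and mouse WT52 had 18. Without mouse WT55 DSS called 11 members higher in wild-type mice, 7 of them in the sterol branch and 3 in the fatty acid branch. The share of all genes called in either direction was then 6.41%, against 5.13% with all mice. Leaving out any 1 of 7 other mice gave 1 or 2 members, against 2.13% to 3.39% of all genes. With array spread as a covariate 13 members were called, of which Fads2 was lower, against 17.9% of all genes. Leaving out the 7 arrays of the whole series with the lowest spread gave 9, against 5.99%.

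Beside this result, dividing-cell genes were called higher in 8 of 10 (list means 7.37 to 9.42 in DSS and 6.62 to 7.08 in untreated wild-type mice) and leukocyte genes in 5 of 9 (7.38 to 9.24 in DSS and 6.99 to 7.14 in untreated mice), and their part in it was not tested. Posterior Hox genes, which mark position along the gut, were called lower in 5 of 8 (6.20 to 6.57 in DSS and 6.77 to 7.76 in untreated mice), with Hoxa11, Hoxc13 and Hoxd12 below the 25th percentile of signal. With the Hox level as a covariate, no member was called in wild-type mice (limma), against 0.0452% of all genes. The medians were larger, at 0.92 over the sterol and 0.91 over the fatty acid genes. Since the Hox level did not overlap between the groups, it and DSS cannot be told apart there.

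**Figure D2:**
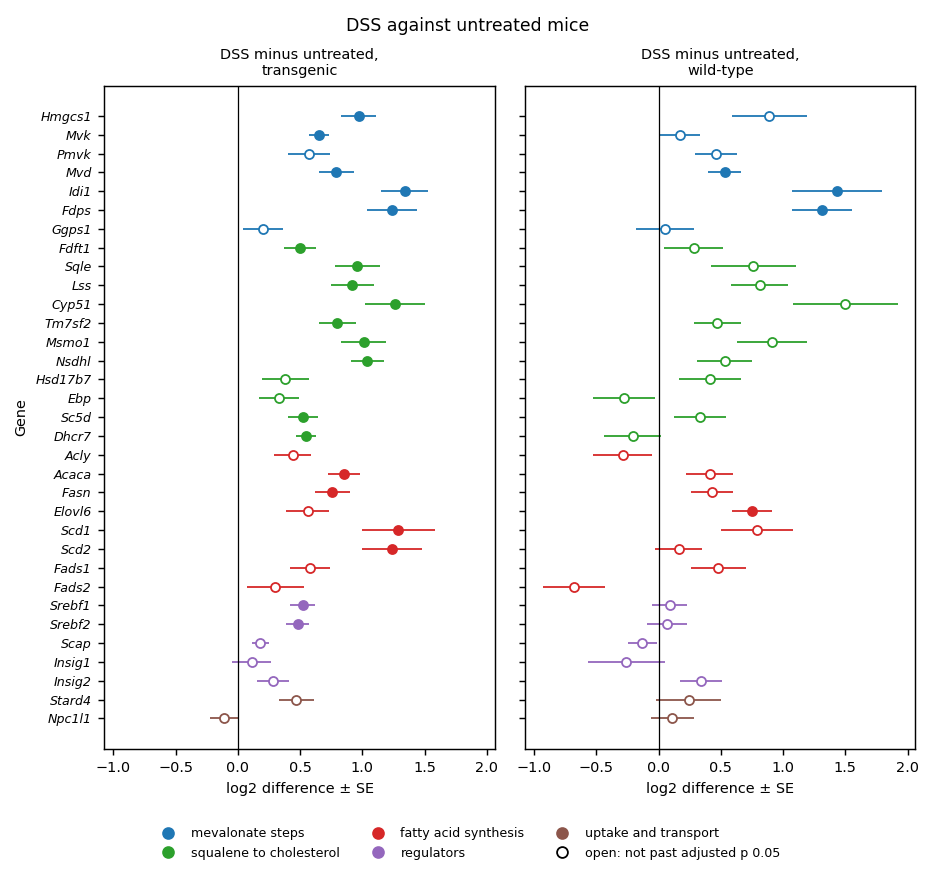
Log2 difference between DSS-treated and untreated mice (x axis, ± SE) for the 33 genes (rows) in transgenic (left) and wild-type mice (right), 5 mice per group. Filled points passed limma's adjusted p of 0.05: 20 in transgenic and 4 in wild-type mice. Error bars were wider in wild-type mice for most sterol genes, such as Cyp51, with an SE of 0.24 in transgenic and 0.42 in wild-type mice.

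The different counts in the genotypes do not show that DSS acted differently in them. In the test of that difference, which takes the DSS difference in transgenic minus that in wild-type mice, none of the 33 genes passed (limma), against 0.156% of all genes. At an unadjusted p under 0.05 there were 8 of the 33 members and 1478 of the 19908 genes. The count of called members was 0 in every alternative run for the interaction, and also for the comparisons of genotype with and without DSS. The median of this interaction was 0.17 over the sterol genes and 0.47 over the fatty acid genes, against -0.02 over all genes. The sterol median was 0.01 without DSS wild-type mouse WT55, -0.01 with array weights and -0.04 with array spread as a covariate, and the fatty acid median was 0.15 with array weights and 0.10 with posterior Hox level as covariate. The 5 sterol genes with the largest DSS differences in wild-type mice had interactions smaller than their standard errors, with Idi1 at -0.09 (SE 0.44), Fdps at -0.07 (SE 0.33), Hmgcs1 at 0.08 (SE 0.36), Msmo1 at 0.09 (SE 0.35) and Cyp51 at -0.24 (SE 0.52), all on the log2 scale. Choosing genes by a large wild-type difference favours low interactions in advance, so these 5 do not speak for the branch. Over all 18 sterol genes the interaction ran from -0.24 to 0.75, positive in 14 and negative in 4. The interaction of Nsdhl was larger than its standard error, at 0.51 (SE 0.27, limma adjusted p = 0.734), and did not pass.

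Scd2 had the smallest p of the members in the interaction. It measured 12.54, 12.36, 12.19, 12.45 and 12.48 in DSS-treated transgenic mice, against 11.80, 10.31, 11.34, 10.82 and 11.55 in untreated transgenic mice, and 11.80, 11.34, 11.45, 12.27 and 12.20 in DSS-treated wild-type mice, against 11.44, 11.45, 11.71, 11.73 and 11.91 in untreated wild-type mice. The interaction was 1.08 on the log2 scale (SE 0.32, limma adjusted p = 0.265) and did not pass. The transgenic groups did not overlap for Scd2, with untreated mouse TG31 lowest, whereas the wild-type groups did. Dhcr7 measured 9.40, 9.27, 9.15, 9.21 and 9.36 in DSS-treated and 8.75, 8.53, 8.73, 8.78 and 8.87 in untreated transgenic mice, and 8.99, 8.52, 7.94, 9.11 and 9.15 in DSS-treated and 8.81, 8.87, 8.83, 9.40 and 8.83 in untreated wild-type mice. Its interaction of 0.75 on the log2 scale (SE 0.25, limma adjusted p = 0.358) did not pass either, and DSS wild-type mouse WT55 had the lowest Dhcr7 level of the 20 conventional mice.

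Between transgenic and wild-type mice without DSS, 0 of 33 genes passed (limma), against 0.0753% of all genes. At an unadjusted p under 0.05 there were 3 members and 996 of the 19908 genes. The median log2 difference was 0.06 over the sterol genes and -0.30 over the fatty acid genes, and 7 of 8 fatty acid genes had a negative difference. Elovl6 measured 9.91, 9.88, 9.45, 9.96 and 9.41 in untreated transgenic mice, against 9.17, 9.13, 9.19, 9.36 and 9.39 in untreated wild-type mice. It was the 1 member whose groups did not overlap, higher in transgenic mice, which held for 0.387% of all genes, with a difference of 0.47 on the log2 scale (SE 0.13, limma adjusted p = 0.539) that did not pass. Acaca measured 8.16, 7.58, 7.81, 7.89 and 7.98 in transgenic mice, against 8.05, 8.20, 8.16, 8.41 and 8.14 in wild-type mice, a difference of -0.31 on the log2 scale (SE 0.11, limma adjusted p = 0.892) that did not pass, and a second Acaca probe set gave -0.00. With posterior Hox level as covariate, which was 6.43 to 7.57 in transgenic and 6.77 to 7.76 in wild-type mice, the fatty acid median was -0.05, and without transgenic mouse TG31 it was -0.09.

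Between transgenic and wild-type mice under DSS, 0 of 33 genes passed (limma), against 0.00502% of all genes. At an unadjusted p under 0.05 there were 4 members and 1030 of the 19908 genes. All 18 sterol genes and 7 of 8 fatty acid genes had a positive difference, with medians of 0.22 and 0.25 and -0.01 over all genes. These medians were -0.30 and -0.27 with posterior Hox level as covariate and 0.06 and 0.12 without wild-type mouse WT55. The sterol median was -0.02 with the adipocyte level as covariate, and the fatty acid median was 0.04 with array weights. Scd2, with the per-mouse values above, averaged 12.40 ± 0.14 in DSS-treated transgenic and 11.81 ± 0.42 in DSS-treated wild-type mice (SD, n = 5 each), a difference of 0.59 on the log2 scale (SE 0.18, limma adjusted p = 0.566). Its groups overlapped. Srebf2 measured 10.34, 10.26, 10.09, 9.94 and 10.14 in DSS-treated transgenic mice, against 9.75, 9.40, 9.21, 9.90 and 10.08 in DSS-treated wild-type mice. The difference of 0.48 on the log2 scale (SE 0.16, limma adjusted p = 0.682) did not pass, and 1 wild-type mouse reached into the transgenic range. The Scd2 and Srebf2 differences turned negative (-0.19 and -0.05) with that Hox covariate, which was 6.69 to 6.87 in DSS-treated transgenic and 6.20 to 6.57 in DSS-treated wild-type mice and did not overlap, so this level and genotype cannot be told apart there. Dhcr7, at 0.54 (adjusted p = 0.819 in limma, not called), was the 1 member with no overlap between these groups, against 1.41% of all genes apart in this direction. Its groups all but touched, at 9.154 in transgenic mouse TG47 and 9.15 in wild-type mouse WT52. Each of these groups also serves in a DSS comparison above, so the comparisons share mice.

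**Figure D3:**
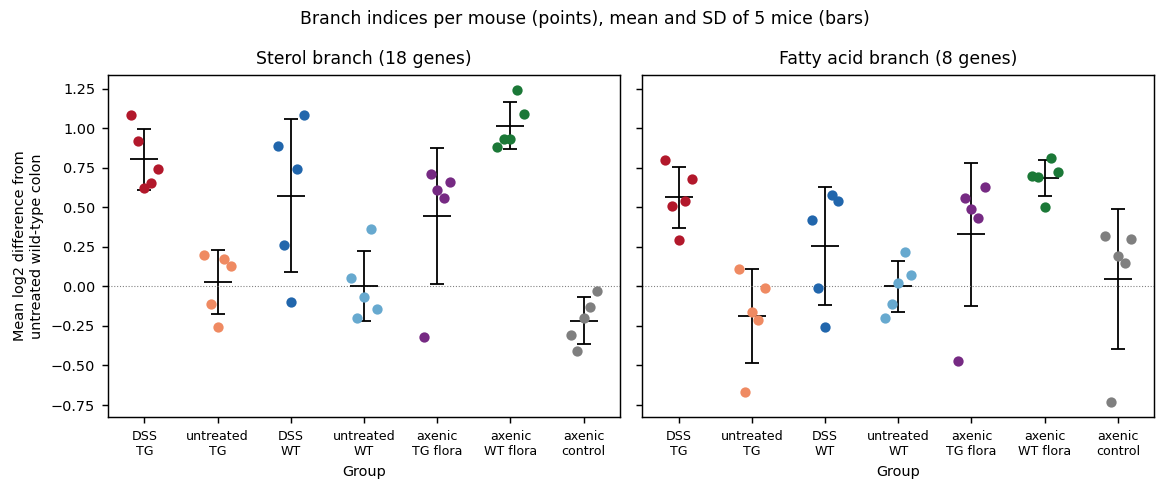
Mean log2 difference from untreated wild-type colon over the 18 sterol genes (left) and the 8 fatty acid genes (right) in each mouse (points), with the group mean and SD of 5 mice (bars). DSS-treated transgenic mice sit between 0.62 and 1.08 for the sterol genes, DSS-treated wild-type mice spread from -0.10 to 1.08, and mouse TG922 at -0.32 lies apart from the other recipients of transgenic flora.

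The branches were set against each other within each mouse, as the sterol index minus the same mean over the 8 fatty acid genes. That fatty acid index was 0.29 to 0.80 in DSS-treated transgenic mice, -0.67 to 0.11 in untreated transgenic mice, -0.26 to 0.58 in DSS-treated wild-type mice and -0.20 to 0.22 in untreated wild-type mice. The sterol index minus the fatty acid index was 0.06 to 0.41 in DSS-treated transgenic mice, against -0.10 to 0.55 in untreated transgenic mice. It was 0.15 to 0.54 in DSS-treated wild-type mice, against -0.21 to 0.25 in untreated wild-type mice. The groups overlapped in both genotypes, so the balance between the branches did not separate DSS-treated from untreated conventional mice. In axenic mice it was 0.03 to 0.15 with transgenic flora (0.15 in mouse TG922), 0.19 to 0.43 with wild-type flora and -0.62 to 0.32 in controls. The recipients of the 2 floras did not overlap in this balance. The range of the controls overlapped with both only through control CT517, at 0.32. The other 4 controls, at -0.62, -0.39, -0.33 and -0.28, lay below every recipient. Over all 7 groups, wild-type-flora recipients had the highest mean for 17 of 18 sterol genes, and for Dhcr7 it was the DSS-treated transgenic mice. Mean array spread was also widest with wild-type flora (1.96) and narrowest in axenic controls (1.73), and its part in the group order was not tested. How often all genes were highest or lowest in these groups was not counted. The lowest mean fell in the axenic controls for 11 sterol genes and in untreated wild-type mice for Cyp51, Fdps, Hmgcs1, Idi1, Mvd, Pmvk and Tm7sf2. For Cyp51, Hmgcs1, Mvd, Pmvk and Tm7sf2 these 2 groups' means differed by less than their spread. Fdps averaged 8.68 ± 0.50 in untreated wild-type mice and 9.15 ± 0.18 in axenic controls (SD, n = 5 each), a gap smaller than the first SD. For Hmgcs1 the top means, 10.62 ± 0.19 with wild-type flora and 10.60 ± 0.22 in DSS-treated transgenic mice (SD, n = 5 each), did not differ beyond their spread. Among the fatty acid genes the wild-type-flora recipients led for 4 of 8, DSS-treated transgenic mice for Acly and Scd2, the axenic controls for Scd1 and untreated wild-type mice for Fads2. For Scd2 the means of DSS-treated transgenic mice and wild-type-flora recipients were both 12.40.

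In axenic mice given DSS, recipients of wild-type flora had higher levels than axenic controls for 30 of the 33 genes and a lower level for 1, against 32.1% of all genes called higher and 35.2% called lower. All 18 sterol genes, all 5 regulators, 6 of 8 fatty acid genes and Stard4 were among the higher ones. Every wild-type-flora mouse lay above every control in 28 of the 33 genes, including all 18 sterol genes, against 20.1% of all genes. The median log2 difference was 1.20 over the sterol genes and 0.57 over the fatty acid genes, against -0.03 over all genes. Within the sterol branch it was 1.47 over the steps from squalene to cholesterol and 0.99 over the mevalonate steps. After quantile normalization the medians were 0.69 over the sterol and -0.02 over the fatty acid genes, and without control mouse CT517 the fatty acid median was 0.37. Quantile normalization called 25 members, against 33.3% of all genes. Of these, 24 were among the 31, and Acaca, Acly, Fasn, Insig2, Sc5d, Srebf1 and Srebf2 were lost.

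Nsdhl measured 10.03, 10.12, 10.01, 10.37 and 10.33 in wild-type-flora recipients, against 8.42, 8.26, 8.45, 8.53 and 8.95 in axenic controls, and was higher by 1.65 on the log2 scale (SE 0.13, limma adjusted p = 4.8e-05). Lss, which closes the ring system of lanosterol, measured 8.24, 8.78, 8.89, 9.01 and 8.79 in recipients, against 6.75, 6.77, 6.54, 7.08 and 7.08 in controls. Its difference of 1.90 on the log2 scale (SE 0.15, limma adjusted p = 4.96e-05), or 3.72-fold, was the largest of the 33 genes in this comparison. Tm7sf2 measured 8.11, 7.91, 7.84, 8.21 and 8.07, against 7.09, 7.08, 7.002, 7.06 and 7.23 in controls, a difference of 0.93 on the log2 scale (SE 0.09, limma adjusted p = 0.000104).

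Mvk measured 8.96, 8.87, 8.96, 9.10 and 8.997 in wild-type-flora recipients, against 8.10, 8.22, 8.05, 7.94 and 8.18 in controls, a difference of 0.88 on the log2 scale (SE 0.08, limma adjusted p = 7.87e-05). Fdps measured 10.34, 10.13, 10.34, 10.58 and 10.59, against 8.86, 9.19, 9.14, 9.25 and 9.33 in controls, a difference of 1.24 on the log2 scale (SE 0.11, limma adjusted p = 9.31e-05). Neither gene's groups overlapped. Elovl6 measured 10.11, 10.24, 10.41, 10.61 and 10.33 in recipients, against 9.13, 8.73, 8.83, 9.09 and 9.20 in controls, and with 1.35 on the log2 scale (SE 0.12, limma adjusted p = 7.75e-05) it stood with Fads1 (1.41) at the top of the fatty acid branch. Acly, Acaca and Fasn, the enzymes that supply and join the carbon units, were higher by 0.51, 0.49 and 0.55. The Acly call was lost without control CT517 (0.37, limma adjusted p = 0.0668) or CT229, without recipient WT880 and with array weights, and both Acly and Fasn were lost without recipient WT597 or WT098. Among the regulators Insig1 was higher by 1.04, Insig2 by 0.82, Srebf2 by 0.79, Srebf1 by 0.53 and Scap by 0.26. Npc1l1, which takes up cholesterol from the gut lumen, was the gene called lower, with -0.42 on the log2 scale (SE 0.12, limma adjusted p = 0.0103). Its groups overlapped, and its means of 6.67 in recipients and 7.08 in controls lay near the array medians of 6.65 to 6.95. The calls of Npc1l1 and Scap were lost with the adipocyte or posterior Hox level as a covariate and without the arrays of lowest spread.

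Scd1 ran against the rest of its branch. It measured 10.41, 10.61, 10.03, 10.19 and 10.17 in wild-type-flora recipients, against 11.75, 9.21, 11.54, 11.49 and 11.38 in axenic controls, a difference of -0.79 on the log2 scale (SE 0.41, limma adjusted p = 0.102) that did not pass. Control mouse CT517, at 9.21, lay below all 5 recipients, and the other 4 controls lay above all of them. Without mouse CT517 the difference was -1.26 (SE 0.13, limma adjusted p = 0.00025). Adipocyte markers had a list mean of 6.95 in mouse CT517 and of 7.65 to 8.05 in the other controls, against 6.73 to 7.30 in wild-type-flora recipients. They were called lower in 6 of 10 in recipients, with the marker Lep below the 25th percentile of signal. With the adipocyte level as a covariate, the Scd1 difference was 0.18 (limma adjusted p = 0.658), and the sterol median exceeded the fatty acid median by 0.18 instead of 0.62. Outside mouse CT517 the adipocyte level did not overlap between the groups, so it and flora can hardly be told apart. Its part in the Scd1 result was not tested.

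The 2 axenic groups differed in much else. Beside the sterol and fatty acid genes, epithelial markers were higher in 9 of 12 (list means 11.42 to 11.82 in wild-type-flora recipients and 10.56 to 11.15 in controls), leukocyte markers in 8 of 9 (8.41 to 10.22 in recipients and 7.14 to 8.66 in controls) and dividing-cell genes in 5 of 10 (8.66 to 9.39 in recipients and 8.01 to 8.97 in controls). Exocrine pancreas markers were higher in 6 of 6 (6.69 to 11.27 in recipients and 6.24 to 8.58 in controls), and squamous epithelium markers of the anal canal were lower in 5 of 8 (5.64 to 5.92 in recipients and 6.00 to 6.39 in controls), with Dsg3, Krt1, Krt4 and Krt5 below the 25th percentile. The part of these lists in the result was not tested. Array spread did not overlap between the groups (1.90 to 2.03 in recipients and 1.64 to 1.78 in controls), so it and flora cannot be told apart. With it as a covariate no member was called (limma), the sterol median was 0.71, the fatty acid median -0.23 and 1 gene of all 19908 passed.

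Recipients of transgenic flora had lower levels than recipients of wild-type flora for 31 of the 33 genes, but none passed (limma), nor did any of the 19908 genes (0.00%). At an unadjusted p under 0.05 there were 22 members and 6856 genes. In a single model of all 35 arrays 8 members and 1927 genes passed, and with array weights 14 members and 4886 genes. The median log2 difference was -0.55 over the sterol genes and -0.44 over the fatty acid genes, against -0.00 over all genes. In 11 of the 33 genes, 9 of them in the sterol branch, every transgenic-flora mouse lay below every wild-type-flora mouse, against 4.45% of all genes.

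Fdps measured 9.37, 9.74, 9.71, 9.62 and 9.85 in transgenic-flora recipients, against 10.34, 10.13, 10.34, 10.58 and 10.59 in wild-type-flora recipients, a difference of -0.74 on the log2 scale (SE 0.12, limma adjusted p = 0.0695). Pmvk, the kinase after Mvk, measured 7.03, 6.80, 6.88, 6.89 and 6.98, against 7.57, 7.17, 7.39, 7.63 and 7.65 with wild-type flora, a difference of -0.57 on the log2 scale (SE 0.11, limma adjusted p = 0.0695). Mvd measured 8.10, 8.23, 8.03, 8.32 and 8.36, against 8.69, 8.47, 8.69, 9.02 and 8.59 with wild-type flora, a difference of -0.49 on the log2 scale (SE 0.11, limma adjusted p = 0.0695). These 3 mevalonate genes had groups that did not overlap, and in Pmvk and Mvd mouse TG922 was not the lowest of its group.

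Acly, which makes acetyl-CoA from citrate, measured 9.21, 9.86, 9.70, 9.45 and 10.01 with transgenic flora, against 10.36, 9.98, 9.77, 10.23 and 10.28 with wild-type flora, a difference of -0.48 on the log2 scale (SE 0.16, limma adjusted p = 0.0887), and its groups overlapped. Acaca measured 7.64, 8.58, 8.54, 8.41 and 8.61, against 8.82, 8.77, 8.65, 9.0 and 9.001 with wild-type flora, a difference of -0.49 on the log2 scale (SE 0.18, limma adjusted p = 0.0945) with no overlap. Insig2 measured 8.17, 8.70, 8.49, 8.49 and 8.56, against 8.95, 8.85, 9.10, 9.40 and 9.22 with wild-type flora, a difference of -0.62 on the log2 scale (SE 0.13, limma adjusted p = 0.0695), and it did not overlap either. Scd1 at 0.06 and Npc1l1 at 0.26 were the 2 genes with positive differences.

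Without mouse TG922 no member passed, and the medians were -0.37 over the sterol genes and -0.25 over the fatty acid genes. The differences were then -0.67 for Fdps, -0.59 for Pmvk, -0.46 for Mvd, -0.37 for Acly, -0.31 for Acaca and -0.55 for Insig2. Scd1 was at 0.42, and Insig1 (0.07) and Scd2 (0.10) turned positive. Without transgenic-flora mouse TG749 there were 11 members and 4700 genes called, and without wild-type-flora mouse WT793 there were 3 members and 149 genes. Array spread was 1.66 to 1.94 with transgenic and 1.90 to 2.03 with wild-type flora, and with it as a covariate the sterol median was -0.08. Smooth muscle markers averaged 9.32 to 10.15 with transgenic and 10.12 to 10.85 with wild-type flora, with 0 of 10 called, and with their level as a covariate the sterol median was 0.04. Array spread and smooth muscle level overlapped only narrowly between the floras, so neither can be well told apart from flora. Their part in the result was not tested. Epithelial markers averaged 10.96 to 11.53 with transgenic and 11.42 to 11.82 with wild-type flora, with 0 of 12 called. Dividing-cell genes averaged 7.74 to 8.88 with transgenic and 8.66 to 9.39 with wild-type flora, with negative differences in 10 of 10 (median -0.54) and 0 called. Exocrine pancreas markers averaged 6.04 to 10.14 with transgenic and 6.69 to 11.27 with wild-type flora, with negative differences in 6 of 6 (median -2.11) and 0 called. The part of these 3 lists in the result was not tested.

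Set against axenic controls, recipients of transgenic flora had positive differences for all 18 sterol genes, but 0 of the 33 genes passed (limma), against 0.337% of all genes called in either direction. At an unadjusted p under 0.05 there were 18 members and 3613 of the 19908 genes. The median was 0.52 over the sterol genes and 0.25 over the fatty acid genes, against -0.05 over all genes. Fdft1 measured 9.88, 11.30, 11.33, 11.34 and 11.24 in transgenic-flora recipients, against 9.54, 9.32, 9.37, 10.27 and 9.75 in controls, a difference of 1.37 on the log2 scale (SE 0.29, limma adjusted p = 0.0773). Mouse TG922, at 9.88, was the 1 recipient that fell within the range of the controls for Fdft1. Mvd measured 8.10, 8.23, 8.03, 8.32 and 8.36, against 7.73, 7.88, 7.74, 7.45 and 7.70 in controls, a difference of 0.51 on the log2 scale (SE 0.11, limma adjusted p = 0.0773). Its groups did not overlap, as for Fdps, while 1.70% of all genes were apart in this direction.

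Mouse TG922 decided this count. Without it the medians were 0.75 over the sterol and 0.36 over the fatty acid genes, and 22 of the 33 genes were called higher, against 26.7% of all 19908 genes called in either direction, and these were 16 of 18 sterol genes, 3 of 8 fatty acid genes (Elovl6, Fads1 and Scd2), Insig1, Srebf2 and Stard4. Fdft1 then differed by 1.65 (SE 0.17, limma adjusted p = 0.00124), Lss by 1.53 (SE 0.13, adjusted p = 0.000257) and Nsdhl by 1.22 (SE 0.13, adjusted p = 0.00124). The sterol index was -0.32 in mouse TG922 and 0.56 to 0.71 in the other 4 recipients of transgenic flora, against -0.41 to -0.03 in controls. Smooth muscle markers averaged 9.32 to 10.15 in recipients and 9.88 to 10.70 in controls, and with their level as a covariate 26 members were called, against 37.4% of all genes. Leukocyte markers averaged 8.23 to 9.94 in recipients and 7.14 to 8.66 in controls, with positive differences in 9 of 9 (median 1.47) and S100a8 called. Adipocyte markers averaged 6.86 to 7.62 in recipients and 6.95 to 8.05 in controls, with negative differences in 10 of 10 (median -0.48) and 0 called. Exocrine pancreas markers differed by a median of 1.32, with 0 of 6 called, and the part of these lists in the result was not tested. The fatty acid median was -0.00 without control CT517. Both flora comparisons share the axenic controls, and the comparison of the floras shares their recipients.

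**Figure D4:**
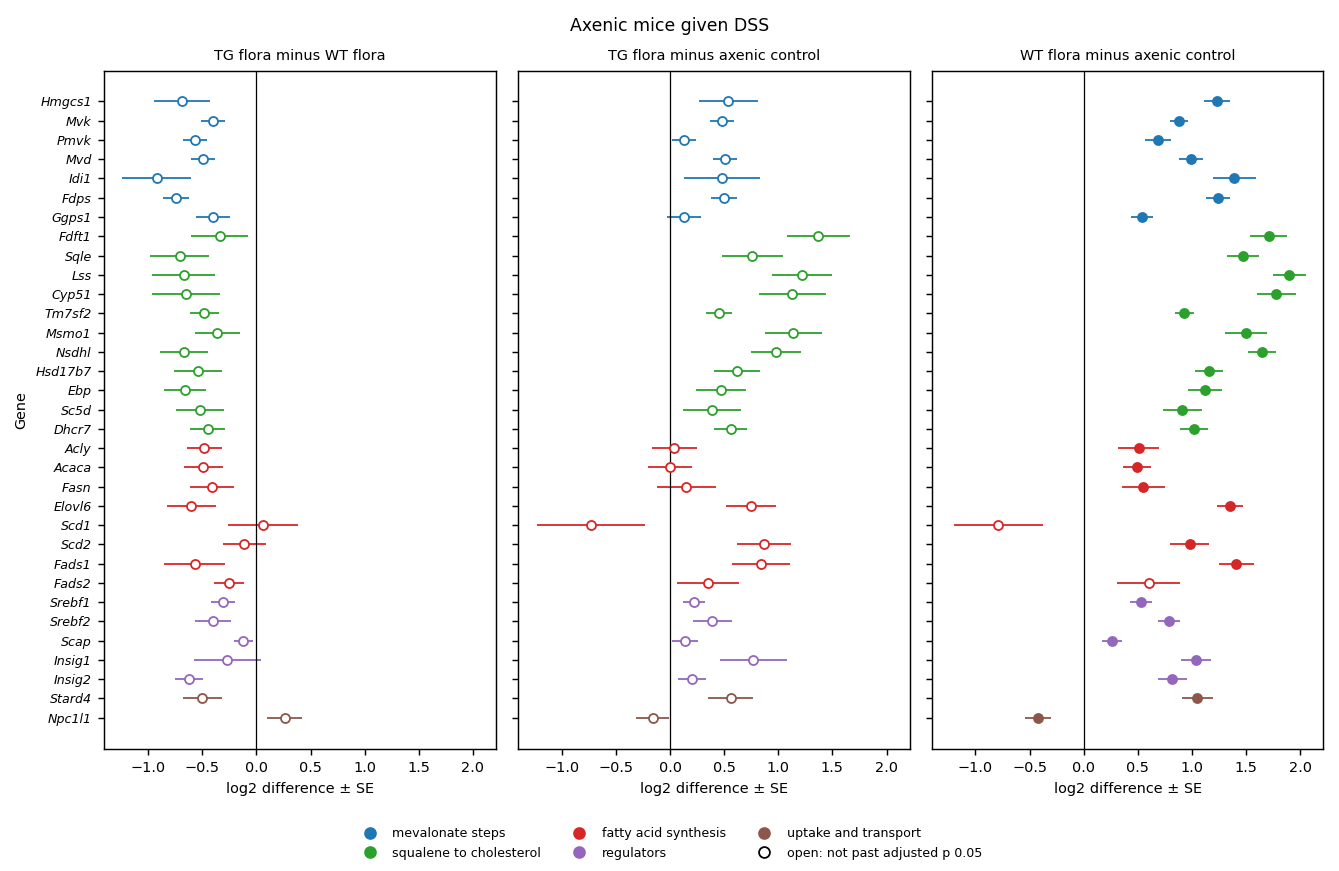
Log2 difference (x axis, ± SE) for the 33 genes (rows) in axenic mice given DSS, 5 mice per group: transgenic against wild-type flora (left), transgenic flora against controls (middle) and wild-type flora against controls (right). Filled points passed limma's adjusted p of 0.05: 0 in the left and middle panels and 31 in the right panel, where Npc1l1 is the filled point below 0.

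**Figure D5:**
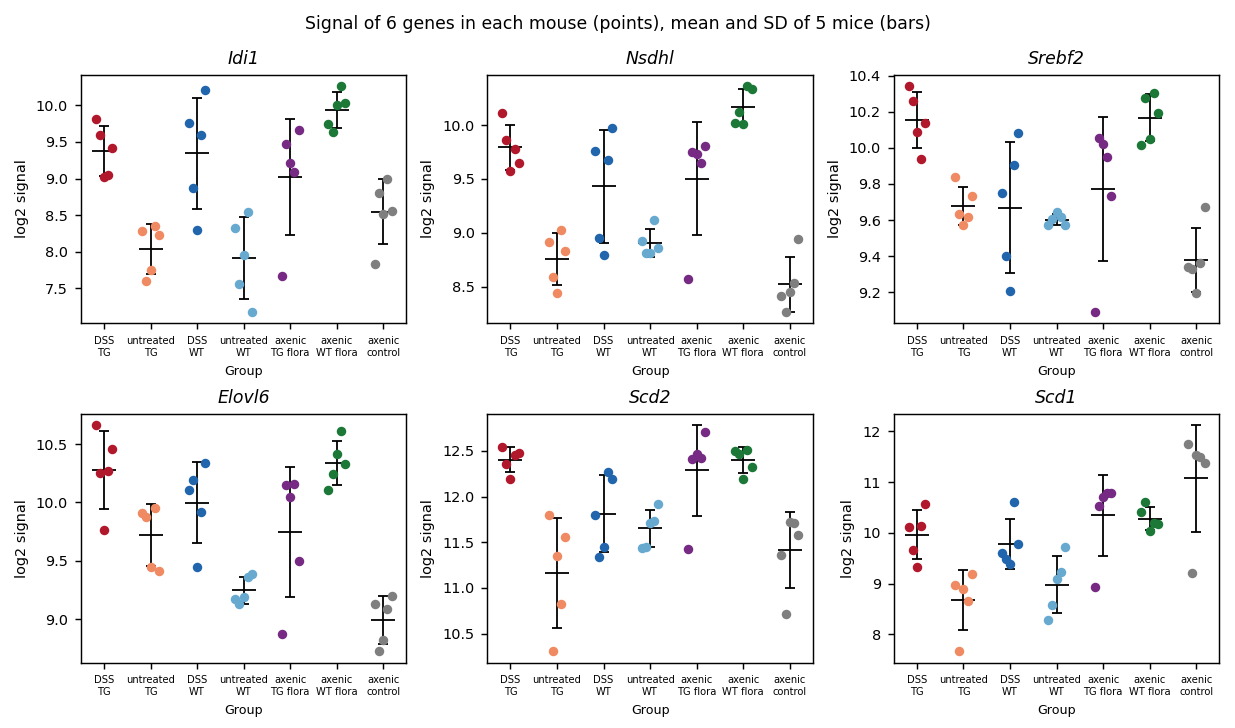
Log2 signal of Idi1, Nsdhl, Srebf2, Elovl6, Scd2 and Scd1 in each of the 35 mice (points), with group means and SD of 5 mice (bars). Mouse TG922 is the lowest recipient of transgenic flora in all 6 genes, and for Scd1 4 of 5 axenic controls lie above every other mouse.

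Other genes of the pathway were counted in 3 lists, to be read against the shares of all genes called: 3.46% higher and 1.08% lower under DSS in transgenic mice, 3.00% and 2.13% under DSS in wild-type mice, and 32.1% and 35.2% with wild-type flora against axenic controls. Of 9 other genes of sterol synthesis, DSS raised 1 in transgenic mice (Hsd17b12) and 0 in wild-type mice, and 7 were higher and 1 (Idi2) lower with wild-type flora than in axenic controls, with Tmem97 at 1.70 (adjusted p = 0.000134). Of 14 genes of sterol uptake, export and esterification, DSS raised Npc2 and lowered Apob (-1.19, SE 0.18, adjusted p = 0.00973), the main lipoprotein carrier of lipid leaving the gut, in transgenic mice, and changed 0 in wild-type mice. With wild-type flora 5 of these were higher and 1, Mttp, which loads lipid onto Apob, was lower. Of 24 other genes of fatty acid and glycerolipid synthesis, DSS raised 3 in transgenic mice, namely Aacs (0.95, adjusted p = 0.0123), which activates ketone bodies for lipid synthesis, the elongase Elovl5 (0.92, adjusted p = 0.0137) and Dgat2 (0.63, adjusted p = 0.0207), which makes triglyceride. In wild-type mice DSS raised Me1 (0.93, adjusted p = 0.0208), which supplies NADPH, and Dgat2 (0.82, adjusted p = 0.0403), and lowered Acss2 (-1.51, adjusted p = 0.0152), which activates acetate, and Gpam (-0.83, adjusted p = 0.0313), the first enzyme of glycerolipid synthesis. Wild-type flora came with 13 higher and 5 lower of the 24, among them Dgat2 at 1.61, Aacs at 1.36 and Agpat2 at 1.21 (adjusted p = 0.000104, 8.98e-05 and 9.31e-05). The 5 lower ones were Mlxipl, Pnpla3, Scd3, Scd4 and Thrsp, of which Thrsp also stands in the adipocyte list. All these p-values are limma's, and in the genotype comparisons, the interaction, the comparison of the floras and that of transgenic flora with controls, 0 genes of these 3 lists passed. Hsd17b12, Idi2, Npc2, Mttp and the 5 lower genes just named were chosen after their values were seen.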

How the data were processed

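Signal was measured in colon RNA (200 ng per mouse) on 1 array per mouse. Per the submitters' processing notes, the authors made the deposited log2 values by RMA in Affymetrix Expression Console 1.1. The sources used here do not name the genome build of the array annotation. Of 28090 probe sets, 21639 had 1 gene symbol, 1539 several and 4912 none, and a gene with several probe sets (990 genes) was read from the one with the highest mean. Symbols were updated through gene identifiers.

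Each comparison was fitted with limma 3.58.1 in R 4.3.3 on its own arrays (lmFit, eBayes), and p-values were adjusted by Benjamini-Hochberg over 19908 genes and called under 0.05. The script was tested on simulated data. Each group has 5 mice and the labels give no batch, cage or sex, so p-values measure the spread between mice as arrayed. Array number limits precision. Per-mouse values are given for the 3 sterol, 2 fatty acid and 1 regulator or transport gene with the smallest p under DSS and between floras, and elsewhere for up to 6 called genes, or the 2 with the smallest p. From the other lists, up to 4 called genes per comparison with the smallest p were named.

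The alternatives were 1 model of all arrays, array weights, quantile normalization, trended and robust variance, the mean of probe sets, a filter at the 40th percentile, covariates for smooth muscle, adipocyte, posterior Hox and array spread, and leaving out each mouse. The members and lists were chosen with earlier results of these data known. Promoters were scanned in Python 3.11.15.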

Additional observations from a re-analysis of the deposited data

Results flagged for a closer look

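Of 245 sets of 5 values tested, 28 (11.4%) held 1 mouse far from the other 4 of its group by Dixon's limit, where chance gives about 1 in 20 for a single set. The sets share mice, and the branch indices average the same genes. They are therefore not independent, and the chance rate is no yardstick for their count. Recipient TG922 of transgenic flora was the lowest of its group in 18 of the 28. In the sterol branch its log2 levels were 8.78 for Hmgcs1 (10.08 to 10.34 in the other 4 mice), 7.66 for Idi1 (9.09 to 9.66), 9.88 for Fdft1 (11.24 to 11.34) and 7.90 for Sqle (9.13 to 9.46). They were 6.84 for Lss (8.22 to 8.50), 6.96 for Cyp51 (8.35 to 8.77), 9.90 for Msmo1 (10.79 to 11.09), 8.57 for Nsdhl (9.65 to 9.81), 8.04 for Ebp (8.90 to 9.22) and 8.46 for Sc5d (9.51 to 9.83). In the fatty acid branch mouse TG922 had 7.64 for Acaca (8.41 to 8.61), 8.86 for Fasn (9.74 to 10.06), 8.93 for Scd1 (10.54 to 10.78), 11.43 for Scd2 (12.41 to 12.70) and 7.49 for Fads1 (8.80 to 9.10). Its Insig1 level was 8.64 (10.09 to 10.45), its sterol index -0.32 (0.56 to 0.71) and its fatty acid index -0.47 (0.43 to 0.63).

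Axenic control CT517 was lowest for Acaca at 7.86 (8.38 to 8.55 in the other 4 controls), Scd1 at 9.21 (11.38 to 11.75) and the fatty acid index at -0.73 (0.15 to 0.32). Untreated wild-type mouse WT11 was highest for Cyp51 at 7.96 (6.72 to 6.87) and Dhcr7 at 9.40 (8.81 to 8.87). Mouse WT9 of that group was lowest for Fads2 at 11.38 (11.71 to 11.81). DSS-treated transgenic mouse TG47 was lowest for Msmo1 at 10.62 (10.97 to 11.11), and DSS-treated wild-type mouse WT55 for Fasn at 9.24 (9.81 to 10.03). Untreated transgenic mouse TG31 was lowest for Insig1 at 9.84 (10.39 to 10.56), and recipient TG446 of transgenic flora was highest for Fads2 at 11.56 (10.96 to 11.13).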

How the results depend on the processing

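Of the counts of called members and the branch differences, 315 alternative values kept close to the reported value and 41 moved. Shares of all genes called in either direction follow in brackets. For DSS in wild-type mice the reported 4 members (5.13%) became 8 with all 35 arrays in 1 model (9.39%), 22 with array weights (29.4%) and 11 with quantile normalization (9.06%). They became 13 with the array spread as a covariate (17.9%), 1 with smooth muscle (1.72%), 2 with adipocyte (4.6%) and 0 with posterior Hox level (0.0452%). Without the 7 arrays of lowest spread, an alternative chosen after seeing the data, they became 9 (5.99%). For DSS in transgenic mice the 20 (4.55%) became 7 with the adipocyte (0.974%) and 11 with the array spread covariate (1.76%). For transgenic against wild-type flora the 0 became 8 in 1 model (9.68%) and 14 with array weights (24.5%). For wild-type flora against controls the 31 (67.3%) became 0 with the array spread covariate (0.00502%). For transgenic flora against controls the 0 (0.337%) became 9 in 1 model (3.32%), 22 with array weights (33.4%) and 2 with quantile normalization (0.764%). They became 26 with smooth muscle as a covariate (37.4%) and 7 without the low-spread arrays (0.392%).

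Leaving out 1 mouse gave 1 to 11 members for DSS in wild-type mice. It gave 1 without untreated mouse WT7 or WT8 or DSS mouse WT65, and 2 without untreated mouse WT10 or WT11 or DSS mouse WT52 or WT53. In these runs 2.13% to 3.39% of all genes were called. Without DSS mouse WT55, leaving out 1 mouse gave 11 members and 6.41% of all genes. For DSS in transgenic mice it gave 8 to 23 members, with 8 without DSS mouse TG48 (0.894% of all genes) and 13 without untreated mouse TG26 (1.16%). It gave 29 to 32 for wild-type flora against controls. For transgenic against wild-type flora it gave 0 to 11, with 3 without wild-type-flora mouse WT793 (0.748%) and 11 without transgenic-flora mouse TG749 (23.6%). For transgenic flora against controls it gave 0 to 22, with 22 without mouse TG922 (26.7%). It gave 0 in the interaction and both genotype comparisons.

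The sterol median minus the fatty acid median was -0.30 in the interaction and 0.05 with the Hox covariate, and 0.36 between untreated genotypes and 0.02 with that covariate. It was -0.03 between genotypes under DSS and -0.22 with the adipocyte covariate, and -0.11 between floras and -0.23 after quantile normalization. For wild-type flora against controls it was 0.62, and 0.18 with the adipocyte, 0.09 with the Hox and 0.94 with the array spread covariate. For transgenic flora against controls it was 0.28, and 0.57 with array weights, 0.02 with the adipocyte covariate and 0.17 to 0.53 without 1 mouse (0.53 without control CT517). Direction turned for Fads2 under DSS in wild-type mice (0.19 with Hox), for Scd2 (-0.19) and Srebf2 (-0.05) between genotypes under DSS with Hox, and for Acaca between floras (0.02 with smooth muscle). The cause of these shifts was not tested.

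Over all genes, the alternatives other than leaving out 1 mouse called 9 to 5843 genes for DSS in wild-type mice (1022 as reported), 194 to 3266 for DSS in transgenic mice (905), 0 to 232 in the interaction (31), 4 to 58 between untreated genotypes (15) and 1 to 339 between genotypes under DSS (1). They called 0 to 4886 between floras (0), 1 to 13990 for wild-type flora against controls (13401) and 19 to 7437 for transgenic flora against controls (67). Leaving out 1 mouse gave, in the same order, 424 to 1277, 178 to 1668, 4 to 59, 4 to 20, 1 to 11, 0 to 4700, 11735 to 13465 and 27 to 5307. No paired analysis was possible because no mouse number is shared between groups. The arrays give no read depth, and signal of genes near background understates differences.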
